A study of Rattus norvegicus with 9 samples.

Results

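Among the small RNAs counted in rat striatum are 8 entries of 5 miRNA families that are known as neuron-enriched: rno-miR-124-3p, rno-miR-124-5p, rno-miR-128-3p, rno-miR-128-1-5p, rno-miR-137-3p, rno-miR-138-5p, rno-miR-218a-5p and rno-miR-218b (the prefix, for rat, is left out from here on). They were chosen by name alone, and all 8 were listed in each of the 9 libraries among 1759 small RNA entries, of which 764 are miRNAs. The striatum receives the main inputs of the basal ganglia and is vulnerable to excess manganese. There were 3 libraries in each of 3 groups. Control rats received corn oil at 1 ml/kg. Rats of the MMT group received methylcyclopentadienyl manganese tricarbonyl, an organic fuel additive, at 4 mg/kg in corn oil, or about 1 mg of manganese per kg. Rats of the MnCl2 group, the positive control, received manganese chloride tetrahydrate at 200 mg/kg in physiological saline at 10 ml/kg, so that this group differs from control in vehicle as well as in compound. Dosing was intragastric, daily on 6 days of each week, lasted 8 weeks and began at an age of 8 weeks, and the series held 18 rats, 9 male and 9 female. The labels do not state the strain, nor from how many rats, or of which sex, a library was made. P-values therefore measure only how far these libraries scatter, and that scatter may be technical.

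A miRNA is cut from a hairpin precursor and guides Argonaute proteins to messenger RNAs that pair with its seed, bases 2 to 8 from the 5′ end. One arm of the hairpin usually accumulates as the guide and the other is mostly degraded. miR-124 represses non-neuronal transcripts during neuronal differentiation, among them that of the splicing regulator Ptbp1. miR-128 restrains neuronal excitability, and its loss from striatal neurons that carry the D1 dopamine receptor makes mice hyperactive. miR-137 acts at synapses and in neuronal maturation, miR-138 limits dendritic spine size through the depalmitoylating enzyme Lypla1, and miR-218 is abundant in motor neurons and is embedded in the axon guidance genes Slit2 and Slit3.

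The deposited sequences of all 8 are shown because seed and strand decide how their counts can be read. They are written 5′ to 3′ with T for U, and the seed is in capitals.
rno-miR-124-3p: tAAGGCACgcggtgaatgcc
rno-miR-124-5p: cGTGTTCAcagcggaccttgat
rno-miR-128-3p: tCACAGTGaaccggtctcttt
rno-miR-128-1-5p: cGGGGCCGtagcactgtctga
rno-miR-137-3p: tTATTGCTtaagaatacgcgtag
rno-miR-138-5p: aGCTGGTGttgtgaatcaggccg
rno-miR-218a-5p: tTGTGCTTgatctaaccatgt
rno-miR-218b: cATGGTTAgatcaagcacaa

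No seed was shared between any of the 8. Of the 8, only miR-128-1-5p shared its 7-base seed with another of the 764 miRNAs, miR-128-2-5p, the same arm of the second miR-128 hairpin. Mature lengths ran from 20 to 23 bases, and no length correction was applied. Whether entries of different sequence are recovered equally well was not tested. The order of their levels is therefore an order of counts, which may differ from that of the molecules in the tissue. G and C made up 34.8% of miR-137-3p, the lowest share, and 66.7% of miR-128-1-5p, the highest.

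miR-218b does not carry the seed of miR-218. Its reverse complement is the first 20 of the 21 bases of miR-218a-5p, and no other entry shares 14 bases or more with any of the 8 on either strand.
Reverse complement of miR-218b: ttgtgcttgatctaaccatg
In RefSeq's GRCr8 table, 6 of the 8 entries were matched by name, each with the same letters. There miR-218a-5p lies on the minus strand at chr14:66922413-66922433 (gene Mir218-1) and on the plus strand at chr10:20572547-20572567 (Mir218-2). miR-218b lies on the plus strand at chr14:66922414-66922433 (Mir3565), opposite to and within the first of these. The chromosome 14 locus lies within the span of Slit2 and the chromosome 10 locus within that of Slit3. miR-128-3p comes from chr13:42251933-42251953, within the span of R3hdm1, and from chr8:120963807-120963827, within that of Arpp21, a regulator of dopamine signalling rich in striatum. miR-128-1-5p is at chr13:42251898-42251918. miR-138-5p is at chr8:131178456-131178478 and, within the span of Slc12a3, at chr19:10680184-10680206. miR-137-3p has the single locus chr2:209165767-209165789. Exons and introns of these genes, and coordinates in rn6, the build the submitters name, are not used here.

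The shallowest library, control 3, held 583045 counts and the deepest, control 1, held 2012769, and miRNAs took 56.5% to 64.1% of them. Levels are given as CPM, counts divided by library size, after TMM scaling, a method that aligns libraries on the bulk of their entries. Within control and within MMT, deeper libraries held larger miRNA shares, so results that depend on scaling are also given as a percent of the miRNA count. All 7 members other than miR-128-1-5p passed the filter on low counts and were tested, while miR-128-1-5p, with 55 counts over all libraries, did not pass and is described by its counts.

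miR-128-3p was the most abundant of the set and ranked between place 8 and place 15 among miRNAs in every library. In control libraries it stood at 22415, 18540 and 17197 CPM, in MMT at 21367, 16373 and 20649, and in MnCl2 at 17445, 16927 and 19835. The 3 groups overlapped, and the highest library exceeded the lowest 1.37-fold. miR-218a-5p followed at 10506, 10595 and 7698 CPM in control, 10156, 9083 and 11584 in MMT, and 10635, 8977 and 9909 in MnCl2. Here control 3, the shallowest library, was the lowest of all 9. miR-137-3p was the most variable of the abundant members, at 3923, 4176 and 3024 CPM in control, 3909, 2917 and 5053 in MMT, and 4903, 3423 and 4522 in MnCl2. Its lowest and highest libraries, MMT 2 and MMT 3, both belonged to the MMT group.

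The spine regulator miR-138-5p stood at 3352, 2682 and 2364 CPM in control, 3274, 2666 and 3590 in MMT, and 2759, 2973 and 2749 in MnCl2. The groups overlapped, and on this scale the 3 MnCl2 libraries lay closer together than those of either other group. As a share of the miRNA count the MnCl2 libraries were instead the most spread, at 0.413% to 0.564%. Control libraries held 0.461% to 0.472% and MMT libraries 0.506% to 0.512%. miR-124-3p, a classical neuronal marker, was counted at 2209, 2213 and 1991 CPM in control, 2257, 1947 and 2439 in MMT, and 2560, 2370 and 2658 in MnCl2. It ranked between place 46 and place 54, and 2 of the 3 MnCl2 libraries held the highest levels of the series. Its other arm, miR-124-5p, was at 159, 114 and 163 CPM in control, 140, 132 and 145 in MMT, and 192, 132 and 146 in MnCl2. MnCl2 1 was the highest and control 2 the lowest library for this arm.

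The order of the abundant members was nearly the same in every library. Means over the 9 libraries were 18972 ± 2172 CPM for miR-128-3p, 9905 ± 1154 for miR-218a-5p, 3983 ± 766 for miR-137-3p, 3778 ± 446 for miR-218b, 2934 ± 395 for miR-138-5p, 2294 ± 239 for miR-124-3p and 147 ± 22.3 for miR-124-5p (SD, n = 9). Each stood above the next in 9 of 9 libraries, with 1 exception. miR-137-3p exceeded miR-218b in 7 of 9 libraries and fell below it in control 3, by 1988 counts to 1989, and in MMT 2, so these neighbours did not differ beyond their spread. The narrowest gap that held in all 9 libraries was between miR-138-5p and miR-124-3p, whose ratio ran from 1.03 to 1.52.

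**Figure D1:**
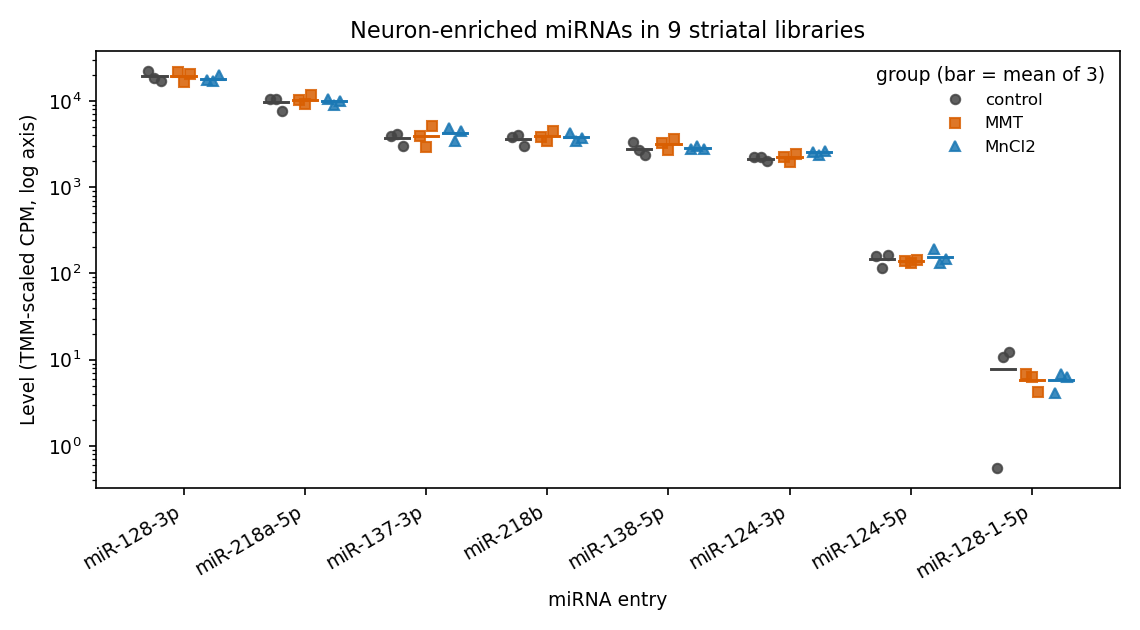
Levels of the 8 entries in 9 striatal libraries, as TMM-scaled CPM on a log axis. Each point is 1 library and each bar the mean of 3. Within an entry the groups overlap except for miR-124-3p, where the MnCl2 libraries, at 2370 to 2658 CPM, lie above the control libraries, at 1991 to 2213, and miR-128-1-5p has 1 control library far below the rest.

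miR-218b followed miR-218a-5p across the libraries with Pearson's r of 0.972 (log2 CPM, n = 9, given as a description), beside 0.896 for miR-218b and miR-137-3p. Its level was 3797, 4003 and 3026 CPM in control, 3855, 3454 and 4479 in MMT, and 4254, 3404 and 3727 in MnCl2. The groups overlapped, with control 3 the lowest and MMT 3 the highest, as for miR-218a-5p. Its counts were 6823, 4092 and 1989 in control, 4522, 2750 and 6304 in MMT, and 3077, 3481 and 3550 in MnCl2. As a percent of miR-218a-5p these were 36.1%, 37.8% and 39.3% in control, 38%, 38% and 38.7% in MMT, and 40%, 37.9% and 37.6% in MnCl2. The lowest value, in control 1, had an exact 95% binomial interval of 35.1% to 37.2%. The highest, in MnCl2 1, had one of 38.3% to 41.7%, without overlap. These 2 libraries were picked as the extremes of the 9, which the intervals do not allow for, and the intervals take reads as independent. Such intervals cover counting error only. The ratio of miR-218b to miR-218a-5p varied 1.11-fold over the libraries (coefficient of variation 2.87%), against 1.44-fold for miR-218b to miR-137-3p (10.8%) and 1.36-fold for miR-128-3p to miR-218a-5p (10.5%). Whether reads were counted with regard to strand is not given in the sources used here, and whether the 2 entries share reads was not tested. Levels of miR-218b are therefore uncertain.

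**Figure D2:**
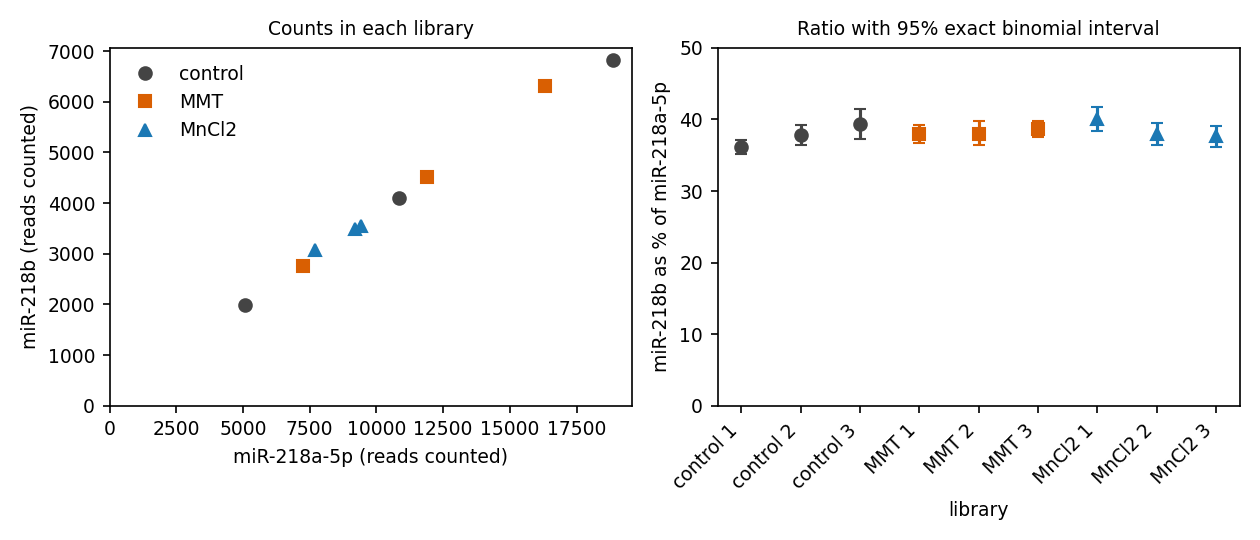
Left, reads counted for miR-218b against miR-218a-5p, 1 point per library. Right, the same counts as a percent, with exact 95% binomial intervals. All 9 libraries lie between 36.1% and 40%, whatever the group.

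Passenger arms were counted less than their guides. Those of miR-128, miR-138 and miR-218a tell the hairpin copies of a family apart where the guide cannot. miR-124-5p does not, since it is listed under the same 3 precursors as miR-124-3p. miR-124-5p reached 6.84% ± 1.53 of miR-124-3p in control, 6.3% ± 0.426 in MMT and 6.19% ± 1.14 in MnCl2 (SD, n = 3). Expressed as the log2 ratio of the 3p to the 5p arm, with 1 CPM added to each, the differences were 0.09 for MMT against control, 0.13 for MnCl2 against control and -0.041 for MMT against MnCl2. Exact two-sided permutation tests gave p = 0.6, 0.7 and 0.8 (n = 3 against 3, adjusted p = 1 over the 6 arm tests), in a design that allows no p below 0.1. The sign of each of these differences depended on single libraries. MMT against control turned to -0.047 and MnCl2 against control to -0.0058 without control 3. MMT against MnCl2 turned to 0.012, 0.027 and 0.038 without MMT 2, MnCl2 2 or MnCl2 3.

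miR-128-1-5p had 1, 11 and 8 counts in control, 8, 5 and 6 in MMT, and 3, 7 and 6 in MnCl2. The single count in control 1, the deepest library, was 0.556 CPM with an exact 95% Poisson interval of 0.0141 to 3.1, below the 5.37 to 19.3 of control 2 and the 5.25 to 24 of control 3. The log2 ratio of miR-128-3p to this arm differed by -0.099 for MMT against control, -0.19 for MnCl2 against control and 0.09 for MMT against MnCl2 (exact two-sided permutation p = 1, 1 and 0.7; n = 3 against 3). Without control 1 the first 2 became 1.01 and 0.92, with p = 0.1, the lowest an exact test of 2 against 3 allows. MMT against MnCl2 became -0.13 without MMT 3 and -0.071 without MnCl2 2, and MMT against control 0.08 without MMT 2.

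The second miR-128 hairpin, Mir128-2, was represented by 149 counts of miR-128-2-5p against 55 of miR-128-1-5p, more in 9 of 9 libraries. For miR-138 the arm of hairpin 1 led, with 705 counts of miR-138-1-3p against 244 of miR-138-2-3p, again in 9 of 9 libraries and by 1.61-fold in control 1 to 7.5-fold in control 3. For miR-218a the Slit3 copy led, with 370 counts of miR-218a-2-3p against 35 of miR-218a-1-3p in all. These ratios count surviving passenger arms and are not a measure of how much each copy is transcribed. Among these scarce arms, 4 (miR-128-1-5p, miR-128-2-5p, miR-137-5p and miR-218a-1-3p) were at their lowest level in control 1, while miR-138-2-3p was at its highest there, 47.3 CPM against 9.13 in control 3.

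The comparison of MMT with control asks whether the organic compound, in the vehicle that control rats also received, went with a change in these neuronal miRNAs. No change was detected. miR-138-5p had the highest fold change, 2799 ± 504 CPM in control and 3176 ± 469 in MMT (SD, n = 3; log2 fold change 0.18, 95% interval -0.18 to 0.54, edgeR adjusted p = 1). It was 0.079 without MMT 3, 0.081 without control 3, 0.31 without MMT 2 and 0.34 without control 1. Without control 2 it was 0.13, and miR-218b, at 0.19, miR-137-3p, at 0.18, and miR-218a-5p, at 0.15, exceeded it. miR-128-3p was at 19384 ± 2710 and 19463 ± 2700 CPM, and the 95% interval of its fold change was 0.762 to 1.32. For miR-124-3p the interval was 0.85-fold to 1.26-fold, the narrowest of the 7 on the log2 scale, and for miR-137-3p 0.764-fold to 1.49-fold, the widest. edgeR's quasi-likelihood test called 0 of the 7 members tested and 0% of all 1113 entries (0 members and 2.16% of entries at an unadjusted p under 0.05). DESeq2 also called 0 (0 members and 23 entries at an unadjusted p under 0.05). Of the 7, 6 had positive log2 fold changes and miR-124-5p a negative one, with a median of 0.09, beside a median of 0.01 over all entries and 0.04 over 615 miRNAs.

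Within the miRNA count, miR-138-5p separated MMT from control. It took 0.461% to 0.472% of the miRNA count in the 3 control libraries and 0.506% to 0.512% in the 3 MMT libraries, and 0.413% to 0.564% in MnCl2. On this scale it was the only one of the 7 members tested whose MMT and control libraries did not overlap, where 4.07% of 615 miRNAs did not overlap in either direction. With miRNAs alone in a TMM-scaled fit, its log2 fold change was 0.039 (SE 0.20, edgeR adjusted p = 1). With miRNAs alone scaled by their own total, chosen after the data were seen, it was 0.12 (SE 0.12, edgeR adjusted p = 0.998). On the scale of all small RNAs, 0 of the 7 separated MMT from control, where 4.58% of 1113 entries did in either direction.

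MnCl2 against control shares its control libraries with the comparison above. miR-124-3p was higher in each of 3 MnCl2 libraries (2529 ± 146 CPM) than in any control library (2138 ± 127; SD, n = 3), a log2 fold change of 0.24 with a 95% interval of -0.043 to 0.53 (edgeR adjusted p = 0.843). It was 1 of the 7 members tested without overlap on this scale, where 9.7% of all entries did not overlap in either direction. On the share of the miRNA count 0 of 7 were without overlap, beside 4.72% of miRNAs. The median over 615 miRNAs was itself 0.23, so that miR-124-3p lay near the middle of all miRNAs. With miRNAs alone in a TMM-scaled fit, which shifted that median to -0.050, miR-124-3p was at -0.032 (edgeR adjusted p = 0.974). With miRNAs alone scaled by their own total it was at 0.18 beside a median of 0.14 (edgeR adjusted p = 1), so its sign depended on the scaling. Without control 3 its log2 fold change over all small RNAs was 0.13, beside a miRNA median of 0.30. As a share of the miRNA count it held 0.311% to 0.397% in control and 0.383% to 0.45% in MnCl2, which overlap. Its unadjusted p was 0.0889, and became 0.0299 with the library total as a covariate (edgeR adjusted p = 0.453). Over all alternatives the adjusted p of miR-124-3p in this comparison ran from 0.453 to 1.

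The other 6 members tested lay at or below the median of miRNAs in that comparison. The mean of miR-137-3p was 3708 ± 605 CPM over control and 4283 ± 769 over MnCl2 libraries, with a log2 fold change of 0.21 (SE 0.22), which was 0.015 without control 3, 0.094 without MnCl2 1 and 0.34 without MnCl2 2. miR-128-3p had the only negative value, 18069 ± 1551 CPM against 19384 ± 2710 in control (SD, n = 3; log2 fold change -0.10, 95% interval -0.50 to 0.30, edgeR adjusted p = 0.918). With miRNAs alone it was at -0.37 under TMM scaling (unadjusted p = 0.0615, edgeR adjusted p = 0.974) and at -0.15 under total-count scaling (unadjusted p = 0.136, edgeR adjusted p = 1), and it turned to 0.019 without control 1. miR-138-5p and miR-218a-5p had log2 fold changes of 0.01 and 0.04, miR-218b 0.07 and miR-124-5p 0.11, and all 4 turned negative with miRNAs alone under TMM scaling. Under total-count scaling of miRNAs alone they were -0.013, -0.014, 0.015 and 0.035 in the same order. The edgeR test called 0 of 7 members and 0% of entries (0 members and 4.58% of entries at an unadjusted p under 0.05). DESeq2 also called 0 (0 members and 69 entries at an unadjusted p under 0.05). The median of the 7 was 0.07 beside 0.23 over miRNAs, -0.21 beside -0.050 with miRNAs alone under TMM scaling, and 0.015 beside 0.14 with miRNAs alone under total-count scaling. No test of the set was run.

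MMT and MnCl2 were set side by side although dose, manganese content and vehicle differ. miR-138-5p was at 3176 ± 469 CPM in MMT and 2827 ± 126 in MnCl2 (SD, n = 3; log2 fold change 0.17, 95% interval -0.19 to 0.53), and miR-124-3p at 2214 ± 249 and 2529 ± 146 (-0.19, interval -0.48 to 0.09), each with an edgeR adjusted p of 0.981. The first was 0.072 without MMT 3 and 0.35 without MMT 2, and the second -0.033 without MMT 2 and -0.12 without control 3. As a share of the miRNA count miR-124-3p held 0.347% to 0.374% in MMT and 0.383% to 0.45% in MnCl2, without overlap, on a scale where its r with the log2 library total was -0.71 over the 9 libraries. The part of depth in this was not tested. It was the only one of the 7 in this, where 7.32% of miRNAs did not overlap in either direction. On the CPM scale 0 of 7 separated the groups, beside 9.07% of entries. miR-124-3p reached an unadjusted p of 0.0348 with total-count scaling (edgeR adjusted p = 0.995). The edgeR test called 0 of 7 members and 0% of entries (0 members and 1.98% of entries at an unadjusted p under 0.05). DESeq2 also called 0 (0 members and 34 entries at an unadjusted p under 0.05). Of the 7, 4 were positive with a median of 0.05, beside -0.057 over all entries and -0.19 over miRNAs.

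**Figure D3:**
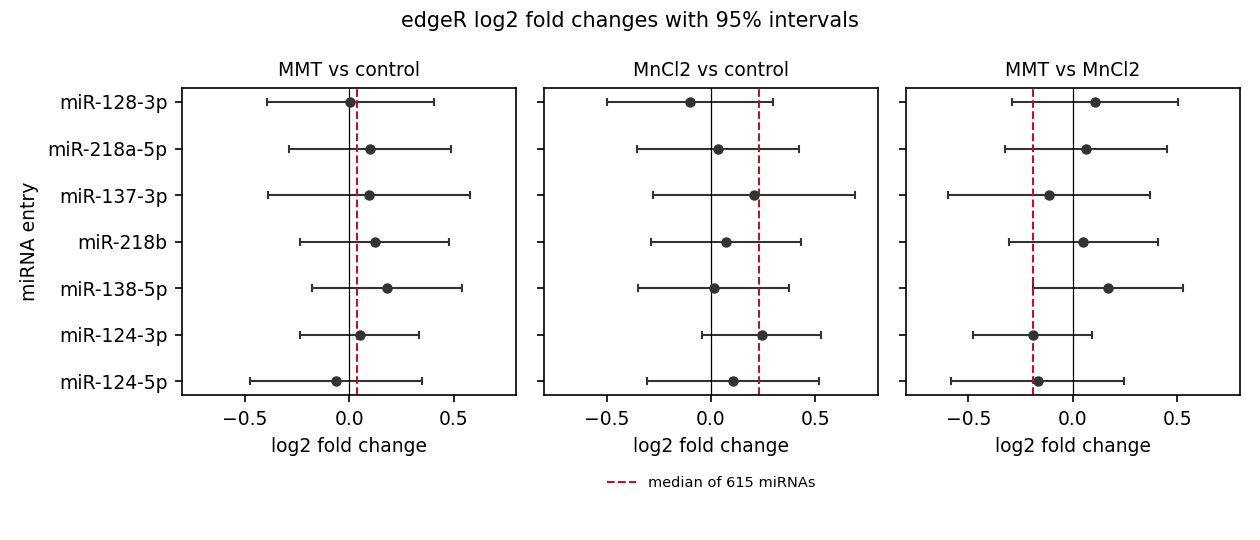
edgeR log2 fold changes of the 7 members tested, with 95% intervals, in 3 comparisons, and the median of 615 miRNAs as a dashed line. Every interval spans 0, and in MnCl2 against control the dashed line, at 0.23, lies at or to the right of all members but miR-124-3p, which sits on it at 0.24.

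By Pearson's r, the CPM of 2 members followed the total count of the library at an adjusted exact permutation p under 0.05. For miR-128-3p Pearson's r with the log2 total was 0.884 (exact permutation p = 0.00109, n = 9) and Spearman's rho 0.883 (exact p = 0.00308). For miR-138-5p r was 0.892 (exact permutation p = 0.00128, n = 9) and rho 0.833 (exact p = 0.00827). Adjusted over the 16 relations computed, both r had an exact p of 0.0102, and rho had an exact p of 0.0492 for miR-128-3p and 0.0661 for miR-138-5p. When the deepest and the shallowest library were left out, r was 0.854 and 0.87 (exact permutation p = 0.0141 and 0.00992, n = 7). On the CPM scale miR-218a-5p had an r of 0.71 and miR-128-1-5p one of -0.74 (exact permutation p = 0.0333 and 0.0216, n = 9). Each had an exact p of 0.0761 after adjustment. Their rho were 0.62 and -0.43 (exact p = 0.0857 and 0.25). With the deepest and the shallowest library left out, their r were 0.62 and -0.070 (exact permutation p = 0.131 and 0.889, n = 7). The r of miR-128-1-5p thus rested on these libraries. As a share of the miRNA count miR-128-3p and miR-138-5p had r of -0.045 and 0.15 (exact permutation p = 0.909 and 0.708, n = 9), with rho of -0.15 and 0.0833 (exact p = 0.708 and 0.843). On that share scale other members had more negative r, none with an adjusted exact permutation p under 0.05. The r was -0.71 for miR-124-3p (exact permutation p = 0.0315, n = 9), -0.74 for miR-124-5p (exact p = 0.024) and -0.78 for miR-128-1-5p (exact p = 0.0125), and rho was -0.67, -0.77 and -0.65 (exact p = 0.0589, 0.0214 and 0.0666). Adjusted over the 16 relations the exact p of r were 0.0761, 0.0761 and 0.0669, and those of rho 0.213, 0.114 and 0.213. Without the deepest and the shallowest library these r were -0.49, -0.76 and -0.23 (exact permutation p = 0.263, 0.0486 and 0.628, n = 7), so that of miR-128-1-5p rested on these libraries. Of 200 miRNAs with a mean of at least 100 CPM, 178 had a positive r with the log2 total, with a median of 0.54, and 3.5% reached that of miR-128-3p. The labels name no batch, so none could be examined.

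**Figure D4:**
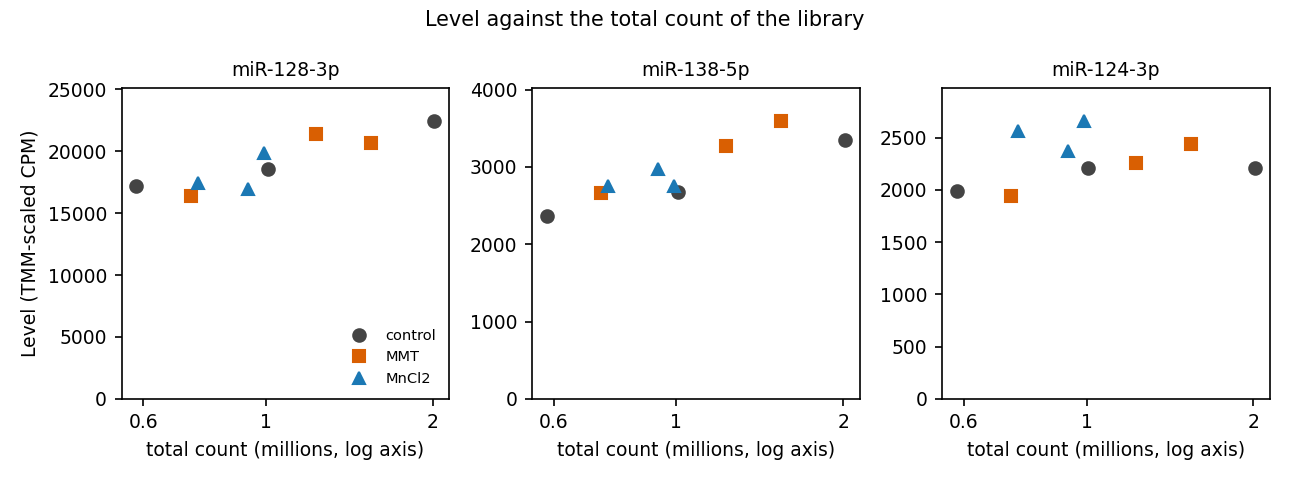
Level of 3 members, as TMM-scaled CPM, against the total count of the library on a log axis, 1 point per library. miR-128-3p and miR-138-5p are higher in deeper libraries (r = 0.884 and 0.892, n = 9), and miR-124-3p has an r of 0.277 on this scale, against -0.71 as a share of the miRNA count.

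Within groups, 6 of the 7 members tested varied less than the median miRNA of at least 100 CPM. The SD of log2 CPM within groups was 0.12 for miR-124-3p, 0.18 for miR-128-3p, 0.20 for miR-138-5p and for miR-218a-5p, 0.19 for miR-218b, 0.23 for miR-124-5p and 0.31 for miR-137-3p. The median over the 200 miRNAs of at least 100 CPM was 0.28, with quartiles of 0.23 and 0.34. These miRNAs were not matched to the members for level. All members tested except miR-124-5p had means of 2294 CPM or more. Whether the members vary less than miRNAs of like level was not tested. Together the 8 entries took 6.53%, 7.28% and 7.08% of the miRNA count in control, 6.95%, 7.03% and 6.82% in MMT, and 6.4%, 7.25% and 6.56% in MnCl2, so the 3 groups overlapped. Without miR-218b, whose level is uncertain, they took 5.99% to 6.59% in control, 6.18% to 6.37% in MMT and 5.76% to 6.61% in MnCl2.

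The closest companions of each family across the 9 libraries were sought among 193 other miRNAs of at least 100 CPM, by Pearson's r of log2 CPM. These points share library and depth, and the r are descriptions. The median r over the 193 ran from 0.495 for miR-124-3p to 0.617 for miR-137-3p. miR-124-3p lay closest to miR-376a-3p (r = 0.89) and miR-148a-3p (0.862), and miR-137-3p to the same miR-376a-3p (0.974) and miR-29b-3p (0.941). miR-128-3p lay closest to miR-3556a (0.988) and miR-29a-3p (0.984). miR-138-5p lay closest to miR-23b-3p (0.884) and miR-221-3p (0.86), and miR-218a-5p to miR-3068-5p (0.923) and miR-30c-5p (0.92). Among the members themselves miR-124-3p and miR-137-3p had an r of 0.842, while miR-124-3p and its own 5p arm had only 0.273.

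A list of 12 other neuron-enriched miRNAs was present throughout, led by miR-9a-5p and miR-7a-5p. In control libraries miR-9a-5p was at 26769 ± 4891 CPM and miR-7a-5p at 24843 ± 3741 (SD, n = 3). All 12 were tested, and edgeR called 0 in any comparison (0 at an unadjusted p under 0.05). In MMT against control 6 were positive and 6 negative with a median of 0.03, in MnCl2 against control also 6 and 6 with a median of -0.016, and in MMT against MnCl2 7 and 5 with a median of 0.05. Of the 6 other arms of the members, 4 passed the filter on low counts and 0 were called.

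Markers of other cell types were present beside the neuronal entries, and in bulk tissue fewer cells of a type cannot be told apart from less RNA per cell. The oligodendrocyte list summed to 3459 to 5613 CPM in control, 4810 to 5726 in MMT and 4126 to 5856 in MnCl2, and the immune list to 2568 to 3889, 3248 to 3913 and 2945 to 4427. The endothelial and smooth muscle list held 14615 to 20586 CPM in control, 16134 to 18986 in MMT and 15805 to 30784 in MnCl2, with MnCl2 1 the highest. Choroid plexus miRNAs ran from 535 to 1790 in control, 511 to 3084 in MMT and 453 to 2042 in MnCl2, which places unequal amounts of that RNA within every group. Red cell miRNAs summed to 68.4 to 116 CPM in control, 81.8 to 87.9 in MMT and 72.4 to 185 in MnCl2. Of the 4 listed, 1 was at 0 in at least 1 library. All 3 red cell miRNAs tested had positive values in MnCl2 against control, with a median log2 fold change of 0.43, and edgeR called 0 (1 at an unadjusted p under 0.05). The hindbrain Hox miRNAs summed to 16.7 to 100.4 CPM in control, 37.7 to 92.9 in MMT and 89.2 to 103 in MnCl2. The 3 tested likewise had positive values in MnCl2 against control, with a median of 0.62, and edgeR called 0 (0 at an unadjusted p under 0.05). In that comparison 476 of 615 miRNAs had positive values, with a median of 0.23. So did 4 of 4 tested in the endothelial and smooth muscle list and 4 of 5 in the oligodendrocyte list. The immune list had 5 of 7 and the choroid plexus list 3 of 5. At an unadjusted edgeR p under 0.05 the oligodendrocyte and immune lists also had 1 entry each in that comparison. The endothelial and smooth muscle list and the choroid plexus list had 0. Over all miRNAs it was 16 of 615, and over all entries 4.58%. The part of these other cell types in the levels of the members was not tested.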

How the data were processed

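The deposited files hold raw counts per small RNA entry, 1 file per library, with no normalization by the authors. The submitters' processing notes name Trimmomatic, without a version, and the build rn6. Not given in the sources used here are the aligner, the use of strand, the placement of reads that match several entries, and whether the molecular identifiers of the QIAseq kit were collapsed. Counts may therefore include PCR copies. Groups and replicate numbers came from the sample titles.

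The main test was edgeR's quasi-likelihood test (version 4.0.16, R 4.3.3), two-sided and with robust weights, after TMM scaling and filterByExpr. All 9 libraries entered 1 fit, with Benjamini-Hochberg adjustment over the 1113 entries kept and a threshold of 0.05. Intervals are the log2 fold change ± its SE times the t quantile. Arm ratios and relations to depth were tested by exact permutation in Python 3.11.15 with scipy 1.17.1. DESeq2 1.42.0, other scalings, filters and designs, each library left out, and miRNAs alone were alternatives. Summing miR-218a-5p with miR-218b, and miRNAs alone under total-count scaling, were added after the data were seen. Scripts were tested on simulated data. The members, lists and tests were chosen with earlier results of these data known. The text names the 8 members, their other arms, the 2 most abundant entries at most of a list, and the 2 miRNAs closest to each family lead. It also names miR-200a-3p, which was called without the filter on low counts.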

Additional observations from a re-analysis of the deposited data

How the results depend on the processing

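Counting error was small for the 6 most abundant members and large for miR-128-1-5p, and 3 libraries per group and the uneven depth limited the rest. edgeR or DESeq2 called 0 members under every alternative run, with a lowest adjusted p of 0.453. Of 438 recomputed log2 fold changes of members, 378 kept their direction and 60 reversed, 30 of these with a library left out. The 378 include fits without robust weights and with a filter of 10 CPM in 3 libraries, which left the log2 fold changes unchanged. The count is therefore no measure of robustness. Without the filter on low counts, 1 entry was called in MnCl2 against control, miR-200a-3p, which is no member. A filter of at least 10 CPM in 3 libraries kept 1113 entries and gave the same values.

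Correlations between same-numbered libraries ran from -0.67 to 0.49, beside -0.77 to 0.75 between differently numbered ones. They were taken from deviations around means of 3 libraries, so they cannot decide whether replicate numbers pair the libraries. A fit with the replicate number as a block was therefore also run. With the replicate block, 0 entries and 0 members were called in each comparison, and 17, 42 and 15 entries had an unadjusted p under 0.05 in MMT against control, MnCl2 against control and MMT against MnCl2, beside 24, 51 and 22 without it. No direction of a member changed with the block.

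For the log2 fold changes that reversed, the cause was not tested. They include the 2 of largest size, those of miR-124-3p and miR-137-3p in MnCl2 against control. With miRNAs alone under TMM scaling, MMT against control was -0.090 for miR-124-3p, -0.14 for miR-128-3p, -0.050 for miR-137-3p, -0.044 for miR-218a-5p and -0.019 for miR-218b. In MnCl2 against control it was -0.032 for miR-124-3p, -0.18 for miR-124-5p, -0.079 for miR-137-3p, -0.26 for miR-138-5p, -0.24 for miR-218a-5p and -0.21 for miR-218b, and in MMT against MnCl2 0.029 for miR-137-3p. With miRNAs alone under total-count scaling, MMT against control was -0.025 for miR-124-3p and -0.059 for miR-128-3p, and MnCl2 against control -0.013 for miR-138-5p and -0.014 for miR-218a-5p. miR-128-3p in MMT against control was also -0.023 with the 2 groups fitted alone, -0.016 without the filter, -0.012 with total count as a covariate and -0.029 with total-count scaling. miR-138-5p in MnCl2 against control was -0.035 with DESeq2, -0.035 with RLE scaling, -0.035 with the 2 miR-218 entries summed and -0.085 without the filter. miR-218a-5p was -0.013 with DESeq2, -0.013 with RLE scaling and -0.056 without the filter there, and miR-218b -0.016 without the filter. With the covariate, MMT against MnCl2 was -0.024 for miR-218a-5p and -0.019 for miR-218b.

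Leaving out 1 library at a time, MMT against control ranged from -0.030 to 0.15 for miR-124-3p, -0.22 to 0.024 for miR-124-5p, -0.067 to 0.13 for miR-128-3p, -0.12 to 0.29 for miR-137-3p, 0.079 to 0.34 for miR-138-5p, -0.027 to 0.20 for miR-218a-5p and 0.012 to 0.22 for miR-218b. MnCl2 against control ranged from 0.13 to 0.29 for miR-124-3p, -0.10 to 0.22 for miR-124-5p, -0.25 to 0.019 for miR-128-3p, 0.015 to 0.34 for miR-137-3p, -0.16 to 0.17 for miR-138-5p, -0.17 to 0.11 for miR-218a-5p and -0.11 to 0.14 for miR-218b. MMT against MnCl2 ranged from -0.27 to -0.033 for miR-124-3p, -0.28 to 0.0069 for miR-124-5p, 0.041 to 0.29 for miR-128-3p, -0.33 to 0.14 for miR-137-3p, 0.072 to 0.35 for miR-138-5p, -0.033 to 0.22 for miR-218a-5p and -0.055 to 0.21 for miR-218b. The difference in the log2 ratio of the miR-124 arms ranged from -0.047 to 0.28 in MMT against control, -0.0058 to 0.32 in MnCl2 against control and -0.19 to 0.038 in MMT against MnCl2. For the miR-128 arms it ranged from -0.72 to 1.01, -0.81 to 0.92 and -0.13 to 0.27 in the same order. The ends came from leaving out control 1 or 3 for both miR-128 comparisons with control.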
